A study of Mus musculus with 4 samples.

Results

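Foxn1 and 7 transcriptional regulators of the pharyngeal pouches, Pax1, Pax9, Six4, Eya1, Hoxa3, Tbx1 and Gcm2, were followed through the stroma of the mouse thymus. They were chosen by symbol, and all 8 were found among the 32285 features of the count matrices and had at least 1 UMI (a counted RNA molecule) among the called barcodes of each library. Single CD45-negative thymic cells of C57BL/6 mice had been profiled by droplet-based 3′ RNA-seq in 4 libraries. All mice were 6 months old and untreated. The 2 libraries of the group labelled mock came from wild-type mice (WT 1 and WT 2), and the 2 of the mutant group from mice homozygous for a LacZ allele of Foxn1 (Z/Z 1 and Z/Z 2), a hypomorphic allele, that is, one of reduced function. No source used here gave the position of the LacZ cassette, and whether the counted 3′ ends lie before or after it is unknown. Thymi of several mice were pooled for each digest, CD45-positive cells were depleted and the rest were sorted, so the shares of cell types also depend on digestion and sorting. The labels state male mice in one field and female mice in another.

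The thymus and the parathyroid glands form from the endoderm of the third pharyngeal pouch. Hoxa3, Pax1, Pax9, Eya1 and Six4 act early in that pouch, before its cells separate into a parathyroid domain marked by Gcm2 and a thymic domain marked by Foxn1. FOXN1 then drives the differentiation of thymic epithelial cells (TECs) and stays in use in the adult organ, where cortical TECs (cTECs) select early thymocytes and medullary TECs (mTECs) display self antigens. The comparison asks where these genes are used in the adult stroma and whether their levels differ when Foxn1 is altered.

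In the GENCODE vM21 annotation of GRCm38, Foxn1 (ENSMUSG00000002057) lies on the minus strand of chromosome 11 from 78357577 to 78386558. Pax1 (ENSMUSG00000037034) lies on the plus strand of chromosome 2 from 147361925 to 147393295, and Pax9 (ENSMUSG00000001497) on the plus strand of chromosome 12 from 56691767 to 56712822. Six4 (ENSMUSG00000034460) is on the minus strand of chromosome 12 from 73099609 to 73113456, and Eya1 (ENSMUSG00000025932) on the minus strand of chromosome 1 from 14168954 to 14310235. Hoxa3 (ENSMUSG00000079560) is on the minus strand of chromosome 6 from 52169062 to 52213336. Tbx1 (ENSMUSG00000009097) spans 18580979 to 18590671 on the minus strand of chromosome 16, and Gcm2 (ENSMUSG00000021362) spans 41101427 to 41111035 on the minus strand of chromosome 13. The annotated span of Hoxa3 overlaps Hoxa4, Hoxa5 and Hoxa6 on the same strand, so its counts are less certain than those of the other members.

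RefSeq promoters on GRCm38.p6 were found for 7 of the 8 members, and Eya1 had no entry in the table used. The 250 bases before the RefSeq start of Foxn1, Pax1 and Pax9 are shown because Foxn1 and the Pax pair are compared throughout the results below. The RefSeq starts of Pax1 and Pax9 differ from the GENCODE starts, and their windows lie inside the GENCODE spans given above. The windows of Six4, Hoxa3 and Gcm2 overlap exons of their own genes and are not printed. The pentamer GACGC, the core that FOXN1 is known to bind, was searched on both strands and is in capitals where present. It occurred in 22.6% of the 32851 promoters of this length.
Foxn1, chr11:78386609-78386858, minus strand: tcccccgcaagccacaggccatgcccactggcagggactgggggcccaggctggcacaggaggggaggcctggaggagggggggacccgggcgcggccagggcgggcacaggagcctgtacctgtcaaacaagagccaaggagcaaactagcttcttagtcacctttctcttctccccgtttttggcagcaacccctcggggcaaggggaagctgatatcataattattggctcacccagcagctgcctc
Pax1, chr2:147364744-147364993, plus strand: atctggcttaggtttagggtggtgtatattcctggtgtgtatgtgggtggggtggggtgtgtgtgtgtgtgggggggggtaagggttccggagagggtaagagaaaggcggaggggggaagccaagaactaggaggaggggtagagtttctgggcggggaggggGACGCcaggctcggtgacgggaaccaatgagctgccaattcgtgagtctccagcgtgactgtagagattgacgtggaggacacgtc
Pax9, chr12:56695221-56695470, plus strand: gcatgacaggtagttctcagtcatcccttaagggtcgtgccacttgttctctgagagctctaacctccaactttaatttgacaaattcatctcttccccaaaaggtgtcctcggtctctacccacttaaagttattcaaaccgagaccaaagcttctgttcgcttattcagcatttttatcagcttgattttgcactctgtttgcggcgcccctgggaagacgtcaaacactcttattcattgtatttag
The Pax1 window held 1 match, which began 86 bases before the RefSeq start, and the windows of Foxn1 and Pax9 held 0. Of the others, the Hoxa3 window held 2, 1 of the 2 Tbx1 windows held 1, and those of Six4 and Gcm2 held 0. A match is a description of letters and not a binding site, and a window without one says nothing of the factor.

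The 4 libraries held 13981 called barcodes, of which 9846 were kept. They held 8468086 UMIs in the smallest library, WT 2, and 50705511 in the largest, Z/Z 1. TECs were 556, 103, 1938 and 1535 of the kept cells in WT 1, WT 2, Z/Z 1 and Z/Z 2, and their sums held 13496355, 2536964, 22358188 and 20492800 UMIs. All 6 TEC markers (Epcam, Cd74, H2-Aa, Krt8, Krt5 and Krt14) were detected in the TEC sums of every library. The mix of TEC classes differed widely. mTEC2-like cells, named from Aire, Fezf2, Cd80 and Cd40, made up 50.5% and 47.6% of the WT TECs but 2.99% and 5.28% of the Z/Z TECs. Cells called aaTEC2-like, after the study's age-associated TECs that lack EpCAM, made up 2.16% and 0% of the WT TECs but 28.6% and 24.95% of the Z/Z TECs. TECs of WT were also deeper, with a median of 16863.5 and 17803 UMIs per cell against 6677.5 and 7022 in Z/Z. Libraries of one genotype shared called barcodes, 202 between WT 1 and WT 2 and 249 between Z/Z 1 and Z/Z 2, against at most 6 between genotypes. Among kept cells 17 and 32 were shared within genotypes.

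Foxn1, the altered gene, was measured in the TEC sums at 82.1 and 115 CPM (UMIs of the gene scaled to a common library total) in WT 1 and WT 2, and the Z/Z pair had 45.8 and 60.5 CPM. The genotypes did not overlap, and 39% of all genes tested were likewise lower in both Z/Z libraries, but WT 2, with 293 Foxn1 UMIs, stood well above WT 1. The log2 fold change, positive where Z/Z was higher, was -0.70 ± 0.24 (SE), and it did not pass the test (edgeR's quasi-likelihood test, adjusted p = 0.088). Without WT 1 the value was -0.96 and passed (adjusted p = 0.040), and without WT 2 it was -0.41 (adjusted p = 0.27), so a single WT library decided the call. Read as the share of TECs with a Foxn1 UMI after every cell was thinned to 2000 UMIs, the 4 libraries were closer together, at 10.6% and 10.7% for WT against 7.51% and 9.23% for Z/Z. Without thinning the shares were 43.5%, 39.8%, 23.5% and 30.0%, in TECs whose median depth was higher in both WT libraries. In a sum over TECs, fewer cells with a gene and less of its RNA per cell cannot be told apart. Fibroblasts, which should lack Foxn1, had a UMI in at most 0.0827% of thinned cells in any library.

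The pair Pax1 and Pax9, paired-box factors of the pouch endoderm that persist in TECs, went the other way in the same sums. Pax1 was measured at 122 and 111 CPM in WT and at 232 and 209 CPM in Z/Z. Pax9 was measured at 85.4 and 105 CPM in WT and at 255 and 184 CPM in Z/Z. For both genes each Z/Z library lay above each WT library, as for 28.2% of all genes tested. Pax1 rose by 1.10 ± 0.14 on the log2 scale (edgeR, adjusted p = 0.0098) and Pax9 by 1.39 ± 0.22 (adjusted p = 0.015).

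Hoxa3, a homeobox factor needed for the pouch to form a thymus, differed most. Its TEC sums held 6.74 and 6.31 CPM in WT against 33.5 and 22.98 CPM for Z/Z, again without overlap. The rise was 2.28 ± 0.28 on the log2 scale (edgeR, adjusted p = 0.0094). Hoxa4, which overlaps it on the same strand, also rose, by 3.04 ± 0.42 (adjusted p = 0.012).

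The partners Eya1 and Six4 did not pass. EYA1 is a co-activator and phosphatase that has no DNA-binding domain of its own and is brought to DNA by partners such as SIX4. Eya1 was measured at 163 and 251 CPM in WT and at 406 and 245 CPM in Z/Z, so WT 2 and Z/Z 2 were alike and the groups overlapped (log2 fold change 0.84 ± 0.32, edgeR, adjusted p = 0.12). Six4 stood at 27.9 and 23.7 CPM in WT and 29.5 and 27.3 CPM in Z/Z, with overlap (0.31 ± 0.18, edgeR, adjusted p = 0.27). Tbx1, a T-box factor of the pharyngeal endoderm and mesoderm, had 15, 11, 27 and 29 UMIs in the 4 TEC sums (log2 fold change -0.67 ± 0.77, edgeR, adjusted p = 0.56). Gcm2 had 4, 0, 7 and 0 UMIs and did not reach the filter on low counts.

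**Figure D1:**
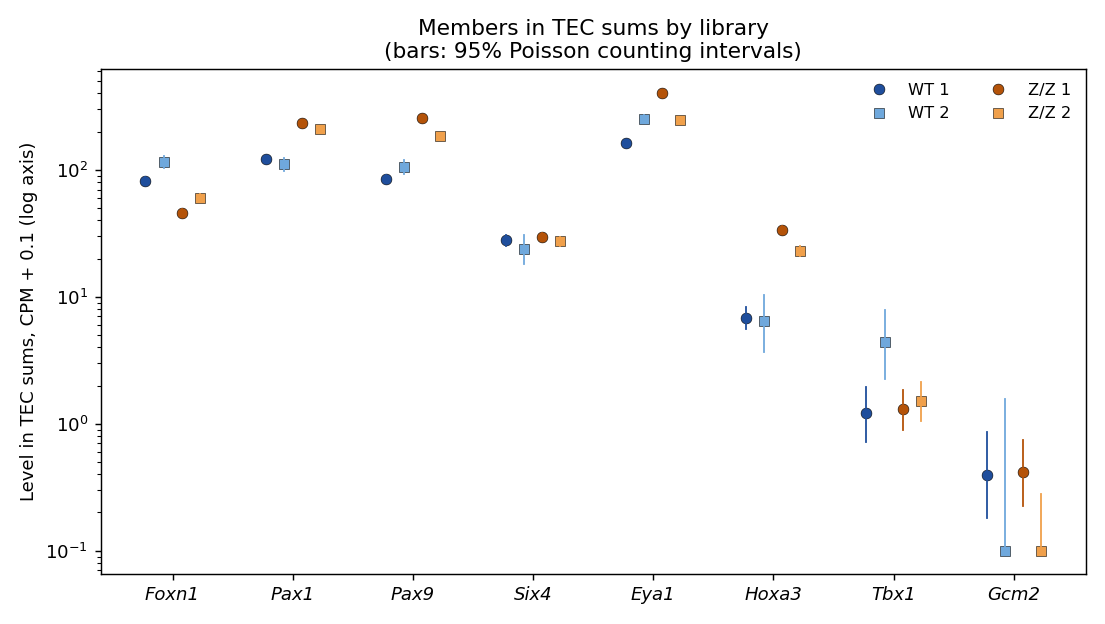
Level of each member in the TEC sums of the 4 libraries, in CPM plus 0.1 on a log axis. Points are libraries and bars are 95% Poisson intervals, which cover counting error only. Pax1, Pax9 and Hoxa3 lie higher in both Z/Z libraries and Foxn1 lower, while Six4 and Eya1 overlap. Gene lengths differ, so heights are compared within a gene only.

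In all, 7 of the 8 members were tested in TECs and 3 were called, all higher in Z/Z. Of all 18834 genes tested 21.8% were called, 9.91% higher and 11.9% lower. The test takes the 4 libraries as replicates, and nothing in the labels says how far pooled animals make them independent, so the p-values measure the spread between these libraries. With each shared barcode counted once the same 3 members were called. Without Z/Z 1 none of the 3 passed (edgeR, adjusted p = 0.056 for Hoxa3, 0.055 for Pax1 and 0.060 for Pax9), while the log2 fold changes stayed at 2.02, 1.06 and 1.17. With TECs taken as single cells by markers, Pax1 was at 0.66 (edgeR, adjusted p = 0.10).

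The mix of classes moved with these differences. When the aaTEC2-like cells were left out, Pax1, Pax9 and Hoxa3 kept log2 fold changes of 1.06, 1.31 and 2.20 and still passed (edgeR, adjusted p = 0.013, 0.020 and 0.013), where 18.7% of genes were called. When the mTEC2-like cells were left out as well, Pax1 was at -0.10 ± 0.16, Pax9 at 0.55 ± 0.29 and Hoxa3 at 1.006 ± 0.27, and 0 of the 7 members tested passed (edgeR, adjusted p = 0.80, 0.36 and 0.13), where 1.27% of genes were called. Of the 7, Hoxa3 alone was under 0.05 before adjustment. Foxn1 was then at -0.11 ± 0.27 and Eya1 at -0.23 ± 0.33. The last cell set and the single classes below were chosen after the data were seen.

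Single classes were then compared, and not all members went the same way. In mTEC2-like cells Pax1 was measured at 21.6 and 17.0 CPM in WT, against 39.98 and 42.4 CPM in Z/Z, and Pax9 at 62.1, 43.3, 111 and 101 CPM. Both were higher in each Z/Z library than in each WT library, with log2 fold changes of 1.15 ± 0.26 and 1.05 ± 0.24 that did not pass (edgeR, adjusted p = 0.26 and 0.25). Eya1 (57.3, 63.4, 104 and 70.3 CPM) and Six4 (21.0, 13.8, 28.3 and 29.5 CPM) were also higher in each Z/Z library. Their log2 fold changes of 0.59 ± 0.24 and 0.77 ± 0.31 did not pass either (edgeR, adjusted p = 0.36 for both). How many of all genes separated likewise in mTEC2-like cells was not counted. Foxn1 was at 85.2, 155, 104 and 104 CPM there, with overlap (-0.13 ± 0.33, edgeR, adjusted p = 0.88). Of all genes tested in this class 0.00799% were called, 1 gene in all. This was the only epithelial cluster with at least 10 cells in every library, so holding the mix fixed by equal weights gave its levels, and 2 libraries against 2 cannot give an exact permutation p below 0.333.

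In cTEC-like cells, named from Prss16, Psmb11, Ly75 and Ccl25, Pax1 stood at 434 and 573 CPM in WT and 268 and 294 CPM in Z/Z, lower in each Z/Z library. WT 2 had 9 cells and 105 Pax1 UMIs in this class. The log2 fold change was -0.74 ± 0.28 (edgeR, adjusted p = 0.23), in a class where 2.62% of genes were called. Foxn1 was also lower in each Z/Z library, at 129, 164, 68.2 and 90.4 CPM (-0.75 ± 0.29, edgeR, adjusted p = 0.23). Hoxa3 was higher in each Z/Z library, at 17.5, 10.9, 36.4 and 23.8 CPM (0.94 ± 0.41, edgeR, adjusted p = 0.30). The share of all genes that separated in either direction was not counted in this class either.

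**Figure D2:**
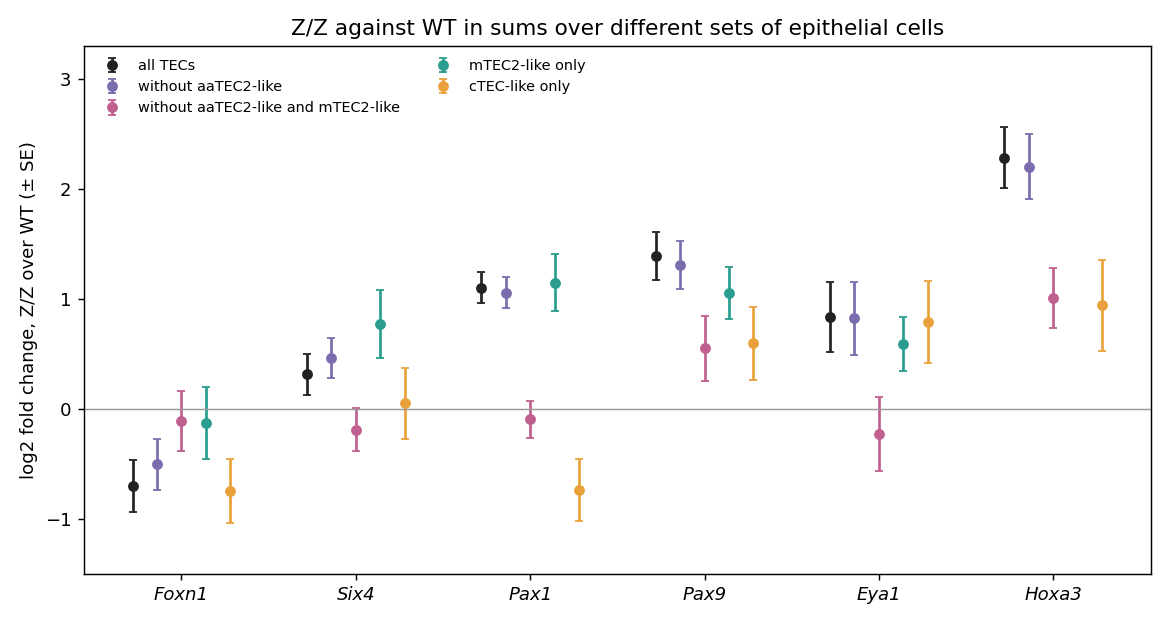
Log2 fold change of Z/Z over WT with its SE for 6 members, from sums over all TECs, over TECs without aaTEC2-like or without aaTEC2-like and mTEC2-like cells, and over mTEC2-like or cTEC-like cells alone. Pax1 moves from 1.10 in all TECs to -0.10 without aaTEC2-like and mTEC2-like cells, and lies at -0.74 in cTEC-like cells. Hoxa3 was not tested in mTEC2-like cells, where it had too few UMIs.

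Across cell types, described here without a test, 5 of the members marked the epithelium. Levels are given for libraries with at least 10 cells of a type. Foxn1 was highest in an unnamed epithelial cluster led by Trp63 and Klhl29, where WT 1 had 134 CPM, Z/Z 1 180 CPM and Z/Z 2 306 CPM. Epcam was found in 40.5% of the 232 cells of that cluster, which had few UMIs per cell and few WT cells, as given below. mTEC2-like cells followed at 85.2 to 155 CPM and cTEC-like cells at 68.2 to 129 CPM, which overlap each other. The mTEC2-like range also overlaps that of the first cluster. The cTEC-like range ends below it only because WT 2, with fewer than 10 such cells, is left out. The cTEC-like level of WT 2, given above, lies inside the range of the first cluster, so no order between the 2 can be read. The Fst and Kctd16 cluster ranged from 57.8 to 87.1 CPM. Fibroblasts held 0.322 to 0.453 CPM, and empty droplets, which carry free RNA, 14.5 to 22.1 CPM.

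The aaTEC2-like cells of Z/Z held little Foxn1 and kept Pax1, Pax9, Eya1 and Hoxa3. They formed 2 clusters, with Ccl19 and Nos1 among the leading genes, and Epcam was found in 12.6% and 9.3% of their cells. They were taken as TECs from Pdpn, Vim and H2-Aa under a rule set after the data were seen, and 0 Schwann cell markers were widely detected in them although that list scored highest, at 0.226. Their Foxn1 level was 3.03 CPM in Z/Z 1 and 3.16 CPM in Z/Z 2, from 11 and 8 UMIs. In the 12 such cells of WT 1, 0 UMIs were seen, which allows up to 22.99 CPM. At the share of free RNA estimated for all TECs, Foxn1 would be at 1.86 and 2.61 CPM in Z/Z 1 and Z/Z 2. How much of the aaTEC2-like level is free RNA was not tested. Pax1 stood at 287 and 213 CPM in Z/Z 1 and Z/Z 2, Pax9 at 325 and 261 CPM, Eya1 at 411 and 293 CPM and Hoxa3 at 39.4 and 36.4 CPM. The 12 cells of WT 1 differed from these, with Pax1 at 45.98 CPM, Pax9 at 145.6 CPM and Hoxa3 at 7.66 CPM, from 6, 19 and 1 UMIs, while Eya1 was at 421 CPM. The cTEC-like cells of Z/Z 1 and Z/Z 2 held Foxn1. Pax1 was at 268 and 294 CPM there and Pax9 at 253 and 163 CPM. Eya1 was at 413 and 237 CPM and Hoxa3 at 36.4 and 23.8 CPM. Pax9 was thus higher in the aaTEC2-like cells of both libraries. Hoxa3 was nearly alike in Z/Z 1 and higher in the aaTEC2-like cells of Z/Z 2. Pax1 and Eya1 were not ordered the same way in both. Six4 was at 11.3 and 5.93 CPM in the aaTEC2-like cells of Z/Z against 36.4 and 36.0 CPM in cTEC-like cells.

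A cluster of 152 cells outside the named epithelium also held the companions of Foxn1. It was led by Ncam1, Chl1 and S100b, held 113 cells of Z/Z 1 and 39 of Z/Z 2, and had 0 cells of WT. Schwann cell markers, Sox10, Gfap, Ngfr and S100b among them, scored highest in it but too few were widely detected for the naming rule, so it stayed unnamed and is marked Sox10 in the plots. Its Foxn1 level was 3.76 and 23.1 CPM, from 4 and 7 UMIs, so it was as low as in the aaTEC2-like cells in Z/Z 1 only. Pax1 was at 168 and 205 CPM, Pax9 at 391 and 314 CPM, Eya1 at 495 and 208 CPM and Hoxa3 at 64.9 and 69.4 CPM.

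The mTEC2-like cells showed the reverse. With Foxn1 near its highest, they held the lowest epithelial levels of Pax1 (17.0 to 42.4 CPM) among classes with at least 10 cells in 2 or more libraries. Eya1 was at 57.3 to 104 CPM, below the 224 to 265 CPM of mTEC1-like cells. Hoxa3 was nearly missing, at 1.11, 0, 2.76 and 0.808 CPM, from 9, 0, 4 and 2 UMIs, in cells with a median of 23633 to 30016 UMIs.

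**Figure D3:**
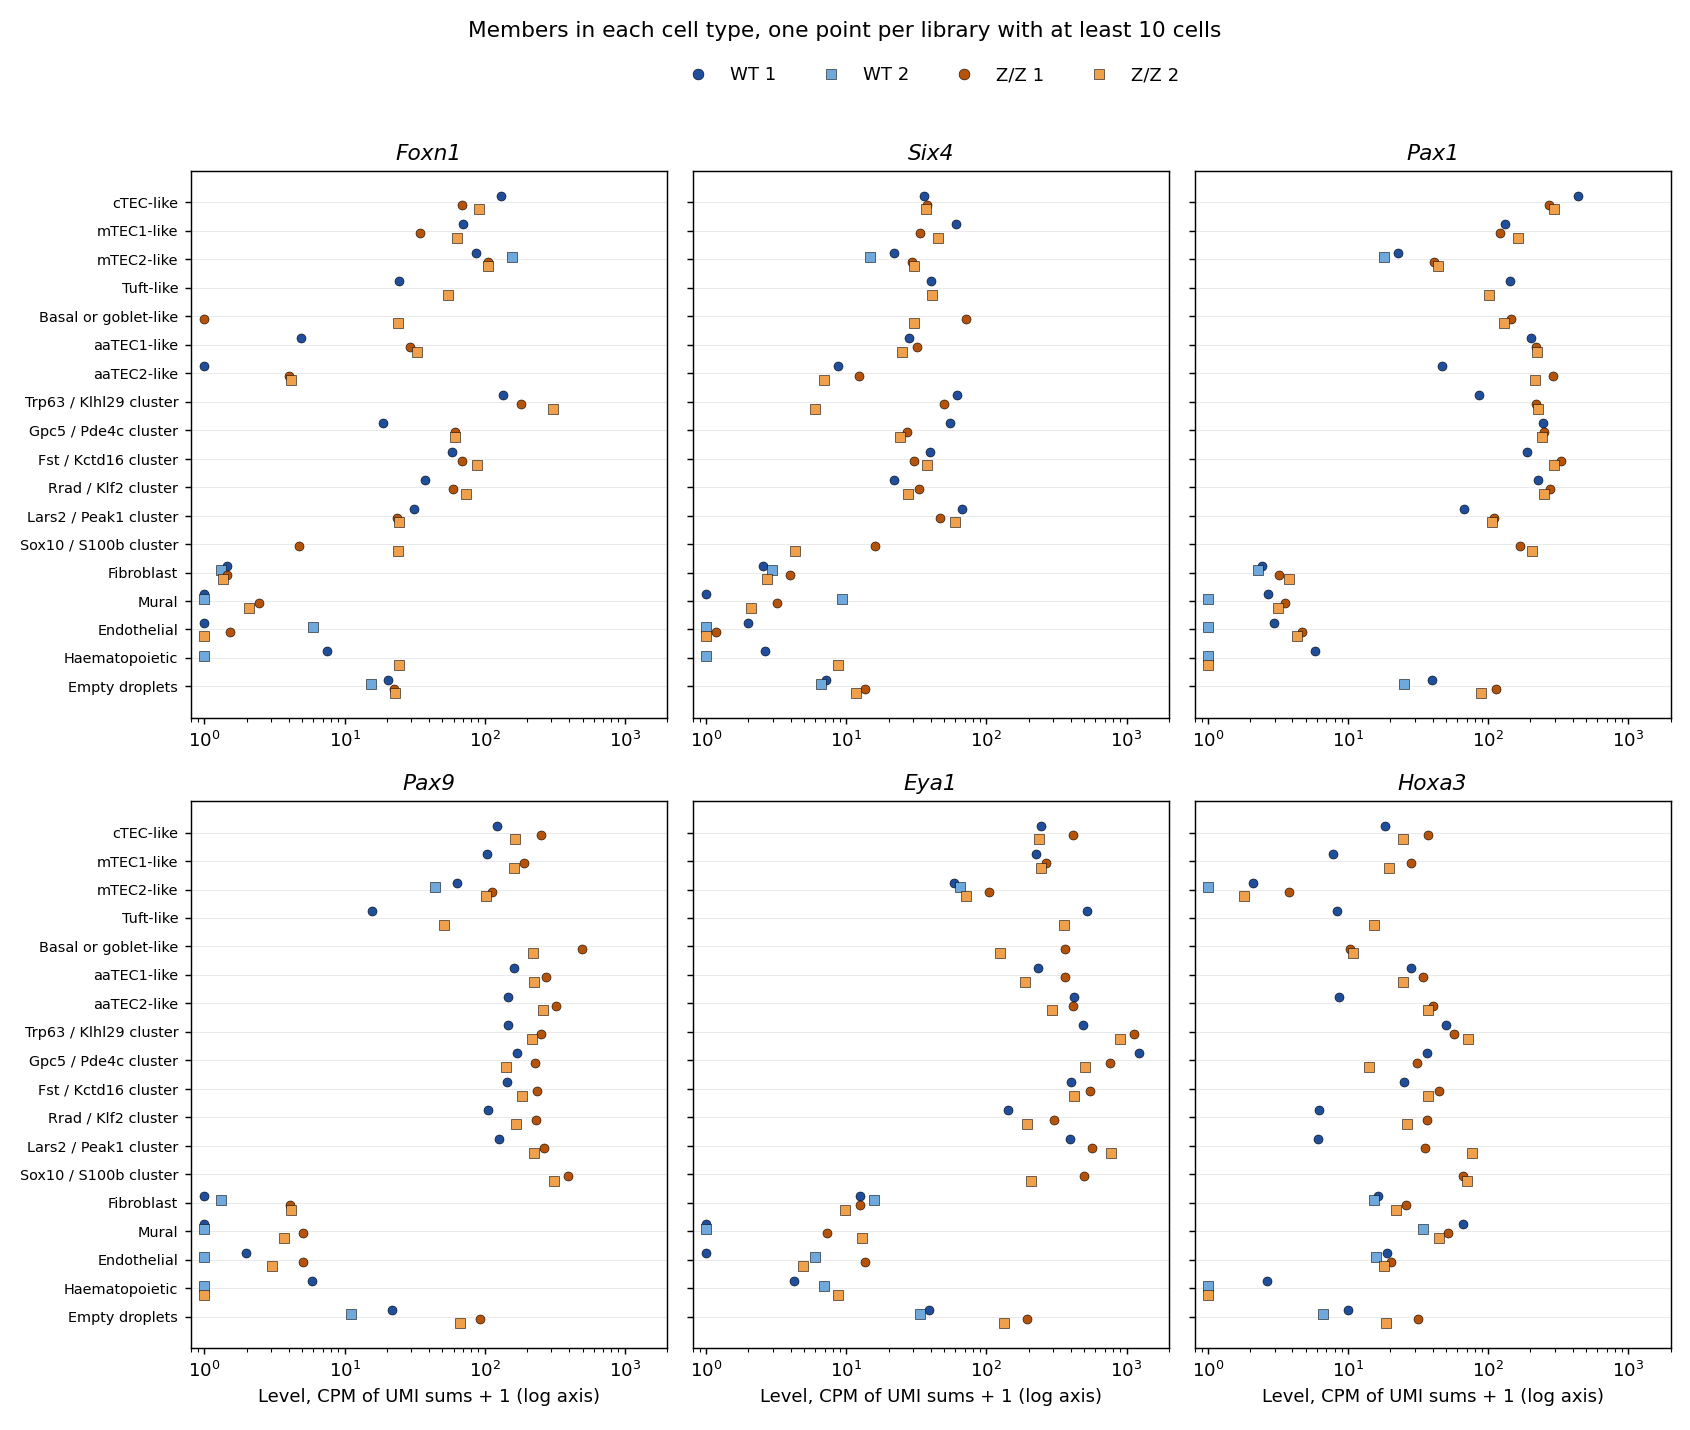
Levels of 6 members in each cell type, in CPM plus 1 on a log axis, with 1 point per library that has at least 10 cells of the type, and empty droplets at the bottom. Foxn1 drops to 3.03 and 3.16 CPM in the aaTEC2-like cells of the Z/Z libraries, whereas Pax1, Pax9 and Eya1 stay above 200 CPM there, and mTEC2-like cells show low Pax1, Eya1 and Hoxa3.

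Cells with a UMI were also counted at a fixed depth of 2000 UMIs. A UMI of Pax1, Pax9 or Eya1 was found in 78.0% and 72.5% of the aaTEC2-like cells of Z/Z 1 and Z/Z 2, and a Foxn1 UMI in 0.361% (95% Clopper-Pearson interval 0.0438% to 1.30%) and 0.794% (0.164% to 2.30%). In cTEC-like cells of the same libraries the shares were 84.0% and 69.6% for the 3 genes and 14.0% and 16.5% for Foxn1. In mTEC2-like cells they were 17.7%, 20.4%, 27.6% and 28.8% for the 3 genes and 12.6%, 18.4%, 15.5% and 18.8% for Foxn1, with both WT libraries given first. Fibroblasts had the 3 genes in 2.31% to 2.98% of cells, though their Eya1 stood above the estimated free RNA, as given below. Endothelial cells had the 3 genes in 0% and 0% of 106 and 25 cells in WT 1 and WT 2. In Z/Z 1 and Z/Z 2 the endothelial shares were 5.71% and 2.12%. Over all TECs, 71.3% and 63.4% in Z/Z had 1 of the 3 genes without a Foxn1 UMI, and 35.2% and 44.7% in WT. At this depth a cell with Foxn1 often shows no Foxn1 UMI, so these shares do not count cells that lack it.

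**Figure D4:**
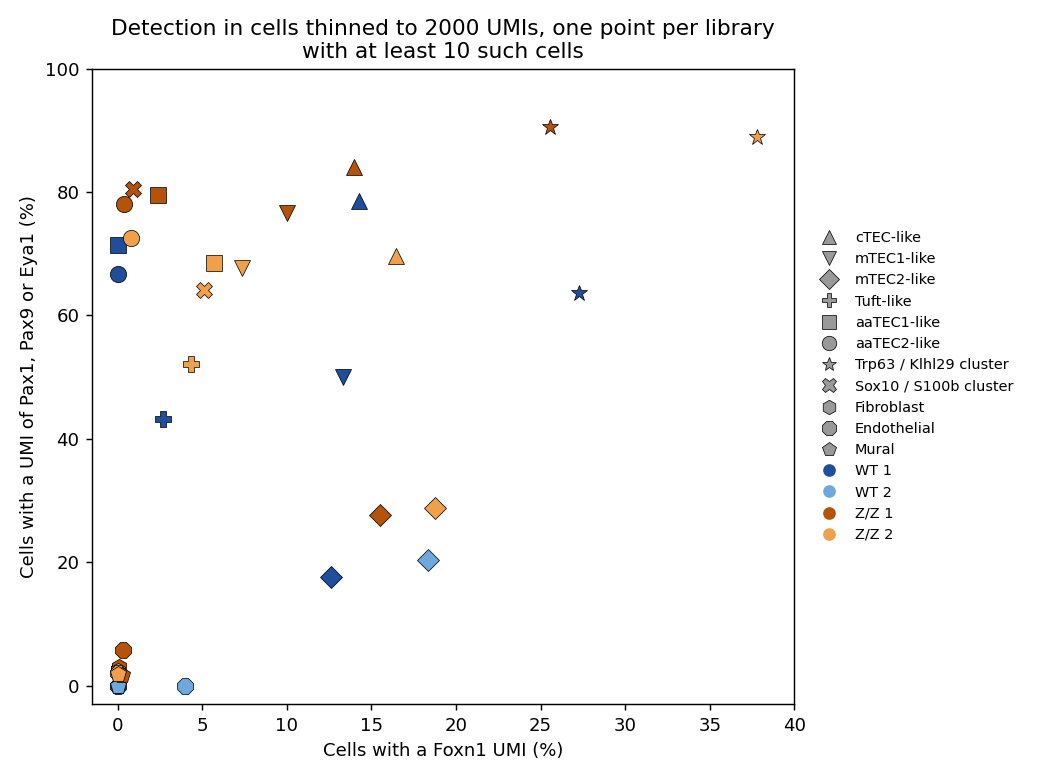
Share of cells with a Foxn1 UMI (x axis, percent) against the share with a UMI of Pax1, Pax9 or Eya1 (y axis, percent), with cells thinned to 2000 UMIs and 1 point per class and library with at least 10 such cells. The aaTEC2-like cells of Z/Z lie at the upper left, mTEC2-like cells at the lower right, and fibroblasts, mural cells and endothelial cells near the origin.

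Eya1 was highest in a pair of unnamed epithelial clusters. The Trp63 and Klhl29 cluster held 487, 1126 and 893 CPM (WT 1, then the Z/Z pair), and the Gpc5 and Pde4c cluster 1228, 760 and 508 CPM. Foxn1 in the latter was at 17.9, 60.3 and 60.3 CPM, the first from 4 UMIs. The Eya1 ranges overlap, so no order between them can be read. Both clusters had few UMIs per cell, with medians of 3474.5 and 4142.5, and few WT cells, 13 and 18 in WT 1. Tuft-like cells, chemosensory cells named from Avil, L1cam, Trpm5 and Dclk1, kept Eya1 at 524 CPM in WT 1 and 360 CPM in Z/Z 2, but had Pax9 at 14.6 and 50.3 CPM, the lowest of the epithelial classes in both libraries. Six4 lay between 13.8 and 70.2 CPM in the epithelial classes other than the aaTEC2-like cells, except in the Trp63 and Klhl29 cluster of Z/Z 2, where 1 UMI gave 5.02 CPM beside Foxn1 at 306 CPM.

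Hoxa3 was also counted in the mesenchyme, at levels within its epithelial range. Mural cells, the pericytes and smooth muscle around vessels, held 64.8, 33.1, 50.2 and 43.1 CPM, and fibroblasts 15.3, 14.2, 24.8 and 20.8 CPM. Endothelial cells were at 17.8, 14.9, 19.2 and 17.1 CPM, from 18, 3, 110 and 92 UMIs, too few in WT 2 to compare the libraries closely. The mural range overlaps the aaTEC2-like levels, and the cTEC-like range overlaps those of fibroblasts and endothelial cells. Hoxa3 was not alone in fibroblasts. Eya1 was at 11.4, 14.8, 11.5 and 8.83 CPM there, against 0.776, 1.02, 4.79 and 3.74 CPM given by the estimated free RNA.

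Outside the epithelium the genotypes were compared in the same way. In fibroblasts 5 members were tested and 1, Pax9, was called, where 3.09% of all genes were, 1.8% higher and 1.29% lower. It had 0 and 1 UMIs in WT 1 and WT 2 and 41 and 26 UMIs in Z/Z 1 and Z/Z 2 (edgeR, adjusted p = 0.024). Its Z/Z levels were 3.09 and 3.15 CPM, above the 0.330 CPM that 0 counts allow in WT 1 and above 1.80 CPM, the upper end of the 95% Poisson interval for the 1 UMI of WT 2. Free RNA differed in the same direction. Pax9 in empty droplets was at 20.9 and 10.0 CPM in WT and 92.0 and 65.6 CPM in Z/Z, and at the share of free RNA estimated for fibroblasts it would give 2.26 and 1.86 CPM in the Z/Z sums. With that share subtracted Pax9 no longer reached the filter.

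Hoxa3 was higher in both Z/Z fibroblast sums, as were 21.3% of all genes, but did not pass (0.70 ± 0.21, edgeR, adjusted p = 0.11). Eya1 was at 11.4, 14.8, 11.5 and 8.83 CPM (-0.25 ± 0.27, edgeR, adjusted p = 0.68). In endothelial cells 3 members were tested and 0 were called by edgeR, where 2.05% of all genes were, 1.03% higher and 1.02% lower. Of the 3, Eya1 alone was under 0.05 before adjustment, and DESeq2 gave no adjusted value for any of them. Eya1 had 0, 1, 72 and 21 UMIs there, and its levels of 12.6 and 3.90 CPM in Z/Z stood beside 6.04 and 9.97 CPM given by the estimated free RNA. Pax1 was at 1.98, 0, 3.67 and 3.34 CPM, higher in both Z/Z libraries like 29.4% of all genes, while 23.9% were lower in both (1.13 ± 1.001, edgeR, adjusted p = 0.58). Hoxa3 did not separate the genotypes, its log2 fold change being 0.13 (edgeR, adjusted p = 0.90).

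Tbx1 and Gcm2 were counted in few cells. Tbx1 was found mainly in Basal or goblet-like cells, named from Ly6d, Spink5 and Wfdc2, where 41 cells held 47 of the 82 TEC UMIs, at 25.7 CPM in Z/Z 1 and 68.9 CPM in Z/Z 2. A small unnamed cluster with Foxi1 and Cftr among its leading genes had 13.8 CPM in Z/Z 1. aaTEC2-like cells had 0 Tbx1 UMIs in 949 cells, which allows up to 0.477 CPM.

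Gcm2, the regulator of parathyroid fate, had a UMI in 14 of all called barcodes. Parathyroid hormone transcripts (Pth) made up at least 0.5% of the UMIs in 7 called barcodes, and 6 of these had a Gcm2 UMI. In 3 of the 14 Pth exceeded 20% of UMIs, up to 36.0%, with Chga beside it. A further 3 were mTEC2-like cells with 0 or 1 Pth UMI, and 7 of the 14 had been left out by the filters or as doublets. Foxn1 UMIs were seen in the 3 mTEC2-like cells only, at 1, 5 and 1.

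The genes whose levels most resembled each member were listed over 50 sums of a cell type in a library, with no test, since sums of one library share depth and free RNA. For Pax1 the closest was Pax9 (Pearson r = 0.95) and for Pax9 it was Pax1, and the LIM-homeobox factor Isl1 was also among the genes most like Pax1 (0.94). Foxn1 resembled Fermt1 (0.91), Trp63 (0.89) and Esrp1 (0.89), the last a splicing factor of epithelia, and Six4 resembled Esrp1 too (0.89). For Eya1 the first was Il7 (0.92), the cytokine that sustains early thymocytes, and for Hoxa3 it was Hoxb3os (0.90). Among the members, Foxn1 had an r of 0.75 with Pax1, 0.74 with Pax9, 0.81 with Six4 and 0.05 with Hoxa3. The 50 sums mix epithelial classes with fibroblast, endothelial and other sums, where Foxn1, Pax1, Pax9 and Six4 were near 0. These values therefore do not show how the members vary together among TECs.

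Other genes of the third pouch in a fixed list of 32 gave no single direction in TECs. Of its 27 genes that could be tested, Z/Z had 6 at higher and 5 at lower levels, where 9.91% of all genes were called higher and 11.9% lower, with a median log2 fold change of 0.47 beside -0.0018 over all genes. Levels of list genes are CPM of the sums without ribosomal and haemoglobin genes, a smaller total than that behind the members' CPM, so the scales differ. Isl1 rose from 77.8 and 91.4 CPM in WT to 233 and 203 CPM in Z/Z (1.52 ± 0.17, edgeR, adjusted p = 0.0087), and Plet1, a surface marker of pouch-stage progenitors, rose by 1.24 ± 0.16 (adjusted p = 0.0097). Bmp4 and Wnt4, ligands that act on the thymic primordium, rose by 1.86 and 1.008 (edgeR, adjusted p = 0.030 and 0.018). Gata3 fell by 1.72 (edgeR, adjusted p = 0.017). Nkx2-6 and Hoxd3 fell by 3.16 and 2.71 (edgeR, adjusted p = 0.029 and 0.037) from levels under 7 CPM. Plet1 was also one of the markers, with Cldn3, Krt5 and Krt8, that named a TEC class called aaTEC1-like. That class had 14 cells of at least 2000 UMIs in WT 1, and 249 and 175 in Z/Z 1 and Z/Z 2. The part of the class mix in the changes of this list was not tested.

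Among 36 paralogues of the members 25 were tested, 5 higher and 9 lower (median -0.46), beside the same 9.91% and 11.9% of all genes. Eya2 rose from 149 and 145 CPM to 252 and 242 CPM (0.89 ± 0.13, edgeR, adjusted p = 0.013), while Six2 rose by 1.26 and Hoxa2 by 1.79 (adjusted p = 0.018 and 0.023). Tbx15 fell by 4.09, from 78.9 and 142 CPM to 4.86 and 6.80 CPM (edgeR, adjusted p = 0.0077), and Pax7, Pax8 and Tbx5 were lower at -5.59, -4.795 and -3.297 (edgeR, adjusted p = 0.013, 0.028 and 0.033), from 2.45 to 26.4 CPM in WT. mTEC2-like cells are known to transcribe many genes of other tissues, and their share fell in parallel. The part of that share in these falls was not tested.

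Of 14 genes reported as FOXN1 targets all were tested and 2 were lower, with a median of -1.06, where 11.9% of all genes were called lower. They were Tnfrsf11a, the receptor RANK, from 242 and 205 to 63.8 and 84.0 CPM (-1.46 ± 0.18, edgeR, adjusted p = 0.0096), and Cd40, from 121 and 130 to 19.4 and 35.8 CPM (-2.05 ± 0.30, adjusted p = 0.013). Cd40 was also one of the markers that named mTEC2-like cells. The share of mTEC2-like cells was lower in the same Z/Z sums, and its part in both falls was not tested. The other 12 did not pass and ranged from -2.28 for Ccl25 to 0.63 for Cxcl12 (edgeR, adjusted p = 0.059 and 0.23), the highest and lowest values being named after they were seen. Of 8 parathyroid genes 2 were lower (median -0.54), beside the same 11.9%, Vdr (-2.03, edgeR, adjusted p = 0.014) and Gata3.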

How the data were processed

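Expression was measured as UMI counts per gene and barcode, which the authors deposited unnormalized from Cell Ranger 7.01 on mm10 and GRCm38.p5, as the submitters' processing notes give them. Sequencing saturation was deposited as a percent, at 65.2% to 95.2%. The members and gene lists were chosen with earlier results of these data known.

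Cells with over 1000 genes and under 20% mitochondrial UMIs were kept, and the 3.9% with the highest Scrublet scores per library (scanpy 1.11.5) were removed, the multiplet rate in the labels. The automatic threshold had marked 97 of 10245 cells. Clusters came from a Leiden partition (leidenalg 0.10.2, resolution 1) on 3500 variable genes. Members, markers and list genes, 150 in all, were held out of it. Names came from marker lists, by thresholds set after seeing the data: a mean marker score of at least 0.2 for lineages and 0.5 for classes, with 3 markers each in 20% of cells. Cells with Pdpn, Vim and H2-Aa each in at least 20% of a cluster, Epcam in under 25% and Pdgfra in under 20% were taken as TECs and called aaTEC2-like. Names are rebuilt and may differ from the study's.

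UMIs were summed per lineage and library, leaving out 111 ribosomal and haemoglobin genes. Z/Z was compared with WT by edgeR 4.0.16 (quasi-likelihood F test, TMM, filterByExpr, two-sided, Benjamini-Hochberg over all genes tested, threshold 0.05). The code was tested on simulated data. Alternatives included DESeq2 1.42.0, other factors, filters and cell sets, each library left out, free RNA subtracted and the replicate number as a block. Fits on single TEC classes, without the aaTEC2-like and mTEC2-like cells or with the Sox10 and Foxi1 clusters, the crossed pairing, the minimum of 5 cells per cluster and the test of the genotype effect between classes were added after seeing the data. The study's rank-sum tests treat cells as replicates and were not used. CPM are UMIs scaled to the sum of all UMIs of the cell set. Shares were compared after thinning to 2000 UMIs, and intervals and the limit of 3 counts for a zero cover counting error only. Empty droplets are barcodes of 1 to 100 UMIs. Named were all members, up to 8 called genes with the smallest p per list, and the 3 most similar genes per member with a mean of at least 5 CPM. Some genes that this rule names are not reported here.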

Additional observations from a re-analysis of the deposited data

Results flagged for a closer look

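The Z/Z effect on Pax1 differed between 2 TEC classes. In mTEC2-like cells both Z/Z libraries were above both WT libraries (log2 fold change 1.15), and in cTEC-like cells both were below (-0.74). How many of all genes separated in this way within each class was not counted. Free RNA was not subtracted from these class sums. At the share estimated for all TECs it gives Pax1 2.17 and 0.883 CPM in WT and 9.79 and 10.3 CPM in Z/Z. The mTEC2-like levels were 21.6 and 17.0 CPM in WT and 39.98 and 42.4 CPM in Z/Z. The part of free RNA in these effects was not tested. The difference between the effects, mTEC2-like minus cTEC-like, was 1.75 ± 0.39 on the log2 scale (edgeR with a library block, adjusted p = 0.036), and 1.24% of the 14267 genes tested were called. It was chosen after the data were seen, and the WT 2 cTEC-like sum rests on 9 cells. For Foxn1 the same difference was 0.66 (adjusted p = 0.63), for Pax9 0.38 (adjusted p = 0.85) and for Eya1 -0.31 (adjusted p = 0.91).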

How the results depend on the processing

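Of the values recomputed, 421 stayed: tested values kept direction and call (direction only where DESeq2 gave no adjusted p), shares and equal-weight levels kept direction, counts of genes stayed within 1.5 times and mean levels within 1 SD. Another 31 moved, 20 turned direction, 12 lost a call and 5 gained one. In TECs 4108 genes were called and 2499 with the replicate number as a block, 2669 with thinned cells, 1760 with TECs taken by markers, 529 to 3999 when 1 library was left out, and, chosen after seeing the data, 1 in mTEC2-like cells, 294 in cTEC-like cells and 205 without aaTEC2-like and mTEC2-like cells. In the last 3 sets 0 members were called, against 3 in all TECs and 0 to 4 without 1 library. The block gave the same 3 called members. The labels do not pair the libraries, and same-numbered libraries did not deviate together (correlation -0.0995 in TECs, -0.107 in fibroblasts and -0.0241 in endothelial cells). In fibroblasts 428 genes were called, 1327 without a filter on low counts, 149 with thinned cells, 112 to 475 without 1 library and 1415 with crossed pairing. Its called member, Pax9, gave 0 calls with thinned cells or free RNA subtracted and 0 to 1 without 1 library, and without WT 1 or WT 2 its adjusted p was 0.17 or 0.052 (edgeR). In endothelial cells 233 genes were called, 738 without the filter (1 member, Eya1, 3.36), 367 with the block, 49 with thinned cells, 87 with cells of over 500 genes, 135 with free RNA subtracted and 77 to 772 without 1 library. Directions that turned, as log2 fold changes, were Tbx1 at -1.56 to 0.46 without 1 library (0.46 without WT 2), Six4 at -0.49 with thinned cells, Pax1 at -0.74 in cTEC-like cells, Pax1, Six4 and Eya1 at -0.10, -0.19 and -0.23 without aaTEC2-like and mTEC2-like cells, and Eya1 in fibroblasts at 0.14 with doublets kept. As Z/Z minus WT shares in percentage points they were Foxn1 at 1.54 and Tbx1 at 0.258 with TECs taken by markers, Tbx1 at 0.0763 at 4000 UMIs and Gcm2 at -0.102 without thinning. As equal-weight levels in CPM they were Foxn1 at 17.7, Pax1 at -16.8, Six4 at -2.96 and Tbx1 at -0.665 with clusters of at least 5 cells, Pax1 at -84.5 at resolution 0.5, Tbx1 at -0.274 at resolution 2, and without 1 library Foxn1 at -51.1 to 18.8, Tbx1 at -0.352 to 3.26 and Gcm2 at -0.246 to 2.51. Eya1 passed in TECs without the filter, with thinned cells and under 10% mitochondrial UMIs (edgeR, adjusted p = 0.020, 0.040 and 0.042). The causes were not tested. The 103 TECs of WT 2 limit every comparison.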
